A study of Mus musculus with 23 samples.

Results

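Cortical astrocytes of mice that carry an intact Aldh7a1 gene were compared between a diet with sulforaphane (SFN) and a control diet, in 8 of the 23 RNA-seq libraries of the study. Both groups were Aldh7a1 flox/flox males without Cre (ConAstro), so the floxed exons were present, and both had received 4-hydroxytamoxifen on postnatal days 3 to 4 as the mutant littermates had. ConAstro mice ate control diet, and SFN-fed ConAstro mice ate the SFN diet from postnatal day 21 until collection at postnatal day 70. Whole cages were assigned to a diet at random, and the labels do not say which mice shared a cage. Each library came from 1 mouse, whose astrocytes were pulled from dissociated cortex by magnetic-activated cell sorting for ACSA-2, a surface antigen of astrocytes. The remaining groups of the study, cKOAstro on either diet, carry CreER at 1 Slc1a3 allele and lose Aldh7a1 exons in cells that express Slc1a3 at the time of tamoxifen, and they enter only the closing comparison of genotypes.

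The 8 libraries were ConAstro replicates 1 to 4 and SFN-fed ConAstro replicates 2 to 5. They were chosen by measured values in 1 respect. SFN-fed ConAstro replicate 1 was left out because its Aldh7a1, Slc1a3 and Esr1 levels are those of the deleted genotype. It held 55.7 CPM (read counts scaled to library size) of Aldh7a1 and 19.96 CPM of Esr1, whereas the other 4 libraries of its group held 177 to 226 CPM of Aldh7a1 and 1.15 to 1.74 CPM of Esr1. In cKOAstro on control diet, Aldh7a1 lay at 45.9 to 77.2 CPM and Esr1 at 16.0 to 22.6 CPM. Slc1a3, the glutamate transporter gene that carries CreER, was at 2100.0 CPM in the library left out and at 4171 to 5674 CPM in the other 4. Because these 3 genes chose the libraries, their levels are a description and were not tested.

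Totals were 74771451 to 84049525 counts per library in ConAstro. In SFN-fed ConAstro they were 75992248 to 83092604 counts in 3 libraries and 219904257 in replicate 3. The mean log2 total differed by 0.39 (two-sided exact permutation test over 70 regroupings, p = 0.286). Names of all ConAstro libraries start with 143, and those of the SFN-fed libraries with 145 (replicates 2 and 3) or 147 (replicates 4 and 5). The labels do not say what this number marks. Diet and number cannot be told apart, and values for the pair of 145 and the pair of 147 libraries are given where they part. ConAstro replicate 3 stood apart from the rest on the first principal component, which held 29.6% of the variance. The astrocyte markers Aldh1l1, Aldoc, S100b, Sox9, Fgfr3, Slc1a2, Glul, Gja1, Gjb6, Aqp4, Kcnj10 and Ntsr2 summed to 26528 to 32298 CPM in ConAstro and 25084 to 33015 CPM in SFN-fed ConAstro, and oligodendrocyte markers summed to 25187 to 29302 CPM in ConAstro and 22006 to 30139 CPM in SFN-fed ConAstro. The groups overlapped in both lists, and every library held oligodendrocyte transcripts beside those of astrocytes. In bulk RNA of a sorted fraction, fewer cells of a type and less RNA per cell cannot be told apart.

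Sulforaphane, an isothiocyanate from broccoli sprouts, modifies cysteines of KEAP1, the adaptor that hands the transcription factor NRF2 (gene Nfe2l2) to a CUL3 ubiquitin ligase. NRF2 then escapes degradation, pairs with a small MAF protein and binds antioxidant response elements (AREs), while BACH1 competes for the same sites. Its targets make glutathione and NADPH, reduce quinones and peroxides, and store iron. In the brain, astrocytes are known for a stronger NRF2 response than neurons, and they feed glutathione precursors to them. The comparison asks how the diet alone moves astrocyte transcripts where Aldh7a1 is intact.

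The ARE is a short DNA element, and 3 promoters that hold it are shown because their genes are among the targets whose values are given below. The sequences are from RefSeq (GRCm38.p6), 5′ to 3′ on the strand of the gene, with the element in capitals.
Srxn1, chr2:152105444-152105503, plus strand: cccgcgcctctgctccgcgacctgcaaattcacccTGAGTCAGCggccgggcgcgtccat
Prdx1, chr4:116685439-116685498, plus strand: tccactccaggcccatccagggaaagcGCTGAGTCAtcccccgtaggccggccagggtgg
Osgin1, chr8:119437022-119437081, plus strand: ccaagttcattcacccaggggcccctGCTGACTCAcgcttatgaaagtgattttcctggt
The letters searched were TGACNNNGC and TGAGNNNGC on both strands, in the 250 bases before and 50 after each annotated start. Of 39 NRF2 target genes on the list used here, 30 had a promoter in the table, and 16 of the 30 held a match. The same letters occurred in 27.8% of all 32851 promoters of that length. A gene was counted if any of its promoters held a match, whereas the 27.8% is a share of promoters, so the units differ. A match is a description of the letters and not of binding.

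Across the transcriptome, no gene passed the threshold in the main test. Of 16405 genes tested with edgeR's quasi-likelihood test, 0 (0%) had a Benjamini-Hochberg adjusted p under 0.05, and the lowest adjusted p was 0.529. At an unadjusted p under 0.05 there were 652 higher genes (3.97%) and 727 lower genes (4.43%) in SFN-fed ConAstro. A limma-voom fit with quality weights, which give outlying libraries less weight, called 0 genes as well. Its lowest adjusted p was 0.333, and 1646 genes had an unadjusted p under 0.05. DESeq2, the tool that the study used, called 322 genes in the same 8 libraries, of which 149 were higher (0.836% of 17819 genes with an adjusted p) and 173 lower (0.971%). The called genes differed little: 64 of the 322 differed by more than 1.5-fold, and the median log2 fold change was 0.47 for the higher and -0.23 for the lower genes. Without replicate 3 of each group DESeq2 called 92 genes, 46 of them among the 322. With SFN-fed ConAstro replicate 1 added it called 24, all of them among the 322. With the 145 libraries alone against the 4 ConAstro libraries it called 101 genes, and with the 147 libraries alone 3. Groups did not overlap for 355 genes that were higher (2.16%) and 514 that were lower (3.13%) in all 4 SFN-fed libraries. Over all genes the median log2 fold change was -0.0093.

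The regulators of the NRF2 pathway differed by little between diets. Nfe2l2 itself measured 72.2, 74.9, 69.8 and 70.3 CPM in ConAstro and 67.7, 71.6, 75.4 and 71.2 CPM in SFN-fed ConAstro. Its log2 fold change was -0.0070 ± 0.046 (SE; 95% interval -0.11 to 0.10; edgeR adjusted p = 0.976). The ranges of the groups overlapped. Keap1 was as even, at 64.7, 65.3, 66.4 and 66.3 CPM in ConAstro and 64.98, 67.6, 62.8 and 62.5 CPM in SFN-fed ConAstro, with a log2 fold change of -0.027 ± 0.040 and a 95% interval of -0.12 to 0.063. SFN acts on the KEAP1 protein, so neither transcript reports on NRF2 protein, which was not measured in these libraries.

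Of the 8 regulators on the list, 1 was higher and 1 lower at an unadjusted p under 0.05 (3.97% and 4.43% of all genes). None passed after adjustment. Bach1, the repressor that competes with NRF2 at AREs, measured 44.2, 42.9, 37.9 and 43.5 CPM in ConAstro and 48.3, 47.5, 44.7 and 48.8 CPM in SFN-fed ConAstro. All 4 SFN-fed libraries were above all ConAstro libraries, and its log2 fold change was 0.17 ± 0.060 (edgeR adjusted p = 0.583). Mafg, a small MAF partner of NRF2, measured 38.7, 40.99, 36.9 and 43.5 CPM in ConAstro and 32.7, 36.99, 37.2 and 35.1 CPM in SFN-fed ConAstro. Only ConAstro replicate 3 lay within the SFN-fed range, and the log2 fold change of Mafg was -0.17 ± 0.067 (edgeR adjusted p = 0.583). Mafg shares exon sequence with Sirt7 on the same strand, so reads there cannot be assigned to 1 of them. Cul3, Maff, Mafk and Nfe2l1 lay between -0.20 and 0.25 in log2 fold change, each with an unadjusted p above 0.05.

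**Figure D1:**
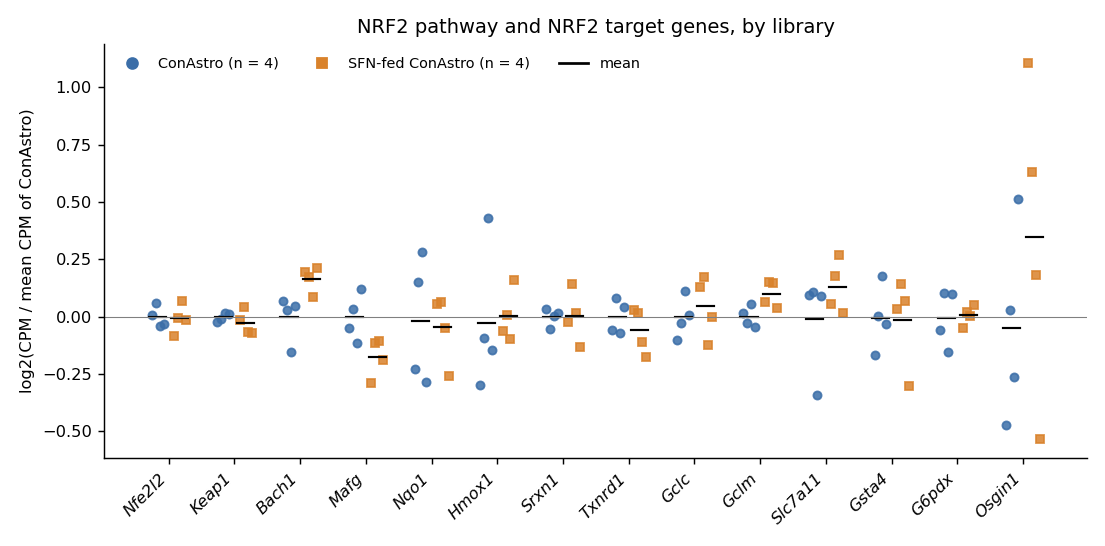
Each point is 1 library (circles ConAstro, squares SFN-fed ConAstro), placed at the log2 of its CPM over the ConAstro mean of that gene, and black lines are group means. Squares and circles overlap in every target from Nqo1 to Osgin1, and among these 14 genes Bach1 is the one with all squares above all circles.

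No NRF2 target gene differed between diets beyond the spread of the replicates. Of the 39 targets, 36 passed the filter on low counts, 19 with a higher and 17 with a lower mean in SFN-fed ConAstro. The median log2 fold change was 0.0053, beside -0.0093 over all genes. No target reached an unadjusted p under 0.05 in either direction, where 3.97% and 4.43% of all genes did, no target's groups were apart (2.16% and 3.13% of all genes), and DESeq2 called none. The 95% interval lay within a 1.25-fold change in either direction for 23 of the 36 targets, within 1.5-fold for 30 and within 2-fold for 33. The targets not tested, Akr1b3, Gpx2 and Gstm3, had at most 0.230 CPM in any of the 8 libraries. So low a value can mean little transcript or reads not assigned to the gene, which cannot be told apart here.

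Among quinone and heme enzymes, Nqo1, which reduces quinones and is the usual reporter of NRF2 activity, measured 8.38, 10.9, 11.9 and 8.05 CPM in ConAstro and 10.2, 10.3, 9.50 and 8.22 CPM in SFN-fed ConAstro. The SFN-fed range lay within that of ConAstro, and the log2 fold change was -0.041 ± 0.15 with a 95% interval of -0.38 to 0.30. Hmox1, the inducible heme oxygenase, measured 11.3, 13.01, 18.7 and 12.6 CPM in ConAstro and 13.3, 13.96, 13 and 15.5 CPM in SFN-fed ConAstro. ConAstro replicate 3 held the highest value of the 8, and the log2 fold change was 0.0054 ± 0.16 (95% interval -0.35 to 0.36). Cbr1, a carbonyl reductase, had the lowest p among the targets with a lower mean, at -0.085 ± 0.055 (edgeR adjusted p = 0.721). The median of the 7 tested genes of this role was -0.041.

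Glutathione genes had a median of 0.064 over 10 genes, with 7 higher in mean. Gclm, the modifier subunit of glutamate-cysteine ligase, the rate-limiting enzyme of glutathione synthesis, had the lowest p of all 36 targets. It measured 67.3, 65.3, 69.2 and 64.6 CPM in ConAstro and 69.6, 73.9, 73.6 and 68.3 CPM in SFN-fed ConAstro. SFN-fed replicates 2, 3 and 4 lay above all ConAstro libraries, and its log2 fold change was 0.10 ± 0.044 (edgeR adjusted p = 0.597). Gclc, the catalytic subunit of the same enzyme, measured 65.04, 68.5, 75.4 and 70.2 CPM in ConAstro and 76.4, 78.6, 64.1 and 69.8 CPM in SFN-fed ConAstro, a log2 fold change of 0.049 ± 0.074. It was 0.15 with the 145 libraries alone and -0.061 with the 147 libraries alone. Slc7a11, the cystine transporter, measured 415, 418, 307 and 413 CPM in ConAstro and 404, 439, 468 and 393 CPM in SFN-fed ConAstro, with ConAstro replicate 3 below the other 7 libraries and a log2 fold change of 0.13 ± 0.11. Gstm2, a glutathione transferase, had the largest difference of the 36 and measured 0.934, 2.20, 1.72 and 1.57 CPM in ConAstro and 2.80, 2.34, 2.31 and 1.74 CPM in SFN-fed ConAstro. Its groups overlapped, with a log2 fold change of 0.52 ± 0.26 (edgeR adjusted p = 0.636). Gsta4, a glutathione transferase for lipid aldehydes, had a log2 fold change of -0.0046 ± 0.11.

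The thioredoxin and NADPH genes kept within narrow ranges. Srxn1, sulfiredoxin, whose ARE is printed above, measured 30.2, 28.4, 29.6 and 29.8 CPM in ConAstro and 29.01, 32.6, 29.9 and 26.9 CPM in SFN-fed ConAstro. Its log2 fold change was 0.0052 ± 0.067, with a 95% interval of -0.15 to 0.16. Prdx1, the peroxiredoxin whose promoter is shown beside it, lay at -0.0025 ± 0.048 (95% interval -0.11 to 0.11). Txnrd1, thioredoxin reductase, was at -0.057 ± 0.061, and G6pdx, which opens the pentose phosphate pathway that supplies NADPH, at 0.0061 ± 0.064. The 6 NADPH genes ran from -0.051 to 0.061.

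Osgin1, an oxidative stress gene with an ARE in the printed window, varied between the SFN-fed libraries. It measured 1.00, 1.42, 1.16 and 1.98 CPM in ConAstro and 2.99, 2.15, 1.58 and 0.960 CPM in SFN-fed ConAstro. The 145 libraries were the highest 2 of the 8 and replicate 5, a 147 library, was the lowest. Its log2 fold change was 0.47 ± 0.36 (edgeR adjusted p = 0.762), 0.89 with the 145 libraries alone and -0.13 with the 147 libraries alone. Abcc4, an export pump, had the lowest p of the 8 iron, export and stress genes, at 0.29 ± 0.15 (edgeR adjusted p = 0.636), and the median of that role was 0.079. Genes of the aryl hydrocarbon receptor, another sensor of dietary compounds, included Ahr at 0.34 ± 0.14 (edgeR adjusted p = 0.587) and Tiparp at -0.17 ± 0.10 (adjusted p = 0.675), and the 5 genes of that list had a median of 0.25, which was -0.31 with the 145 libraries alone and 0.23 with the 147 libraries alone.

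The genes that stood out were ranked by unadjusted p among those with non-overlapping groups, 10 in each direction, so their separation is a result of the ranking. None passed in edgeR (adjusted p = 0.529 for each of the 20), and all 20 were called by DESeq2. Unadjusted p-values, which ranked them, are not given as tests. Serping1, the C1 inhibitor of complement, had the lowest p of the higher genes and measured 6.02, 5.56, 6.46 and 6.57 CPM in ConAstro and 9.85, 10.2, 9.63 and 8.66 CPM in SFN-fed ConAstro. Its log2 fold change was 0.64 ± 0.10 (DESeq2 adjusted p = 1.05e-08; chr2:84765387-84775444, GENCODE M21 on GRCm38). Foxd1, a forkhead transcription factor, had the largest fold change of the 20, at 4.69 ± 0.706 CPM in ConAstro and 9.05 ± 2.01 CPM in SFN-fed ConAstro (mean ± SD, n = 4 each). Its libraries held 5.10, 4.70, 3.70 and 5.28 CPM in ConAstro and 10.2, 11.3, 7.04 and 7.70 CPM in SFN-fed ConAstro, with the 145 libraries above the 147 libraries, and the log2 fold change was 0.95 ± 0.18 (DESeq2 adjusted p = 0.000252; chr13:98354242-98359305). The study names Foxd1 for its comparison of genotypes, not for the diet. With SFN-fed ConAstro replicate 1 added, the log2 fold change was 0.84 for Foxd1 and 0.54 for Serping1.

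Of the other higher genes, Slc6a13 and Myh11 are on the fibroblast and mural marker lists. Slc6a13, a GABA and taurine transporter of leptomeningeal cells, measured 11.1, 10.1, 12.6 and 10 CPM in ConAstro and 17.8, 19.6, 14.9 and 16.2 CPM in SFN-fed ConAstro, a log2 fold change of 0.65 ± 0.11. Myh11, smooth muscle myosin, measured 24.04, 27.8, 25.9 and 38.6 CPM in ConAstro and 47.2, 49.3, 50.4 and 46.98 CPM in SFN-fed ConAstro, a log2 fold change of 0.74 ± 0.14. Without ConAstro replicate 4, the highest library of its group, Myh11 was the 1 gene called by edgeR (log2 fold change 0.91, adjusted p = 0.0179). Lama1, a laminin chain of the pial basement membrane, was at 0.77 ± 0.14, and Aoc3, a vascular amine oxidase, at 0.91 ± 0.17. Tgfb1i1, a focal adhesion protein of smooth muscle, lay at 0.42 ± 0.081. Sh2d3c, a signalling adaptor, was at 0.49 ± 0.079 and the adhesion receptor gene Adgrl2 at 0.36 ± 0.063. Pcdhgb2, a clustered protocadherin that shares its 3′ exons with the other gamma genes, so that reads there cannot be assigned to 1 of them, was at 0.52 ± 0.10. Of 22 gamma protocadherins, a set added after the values were seen, 21 had a higher mean and 7 an unadjusted p under 0.05, beside 3.97% of all genes. Pcdhgb2 prompted the set and is counted in it, so its count partly restates that gene. Whether the members are separate observations was not tested.

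Among the 10 lower genes the differences were smaller. Srek1, a regulator of splicing, had the lowest p of all genes and measured 61.6, 65.8, 65.4 and 64.6 CPM in ConAstro and 53.4, 51.4, 50.6 and 54.7 CPM in SFN-fed ConAstro. Its log2 fold change was -0.29 ± 0.043 (DESeq2 adjusted p = 3.37e-09; chr13:103739348-103774608). Haus3, a subunit of the augmin complex at the spindle, measured 10.3, 9.97, 10.9 and 10.2 CPM in ConAstro and 7.44, 7.39, 6.98 and 7.89 CPM in SFN-fed ConAstro, a log2 fold change of -0.48 ± 0.081. Ercc5, a nuclease of nucleotide excision repair, measured 36.5, 37.6, 35.7 and 37.4 CPM in ConAstro and 30, 29.9, 29.4 and 31.9 CPM in SFN-fed ConAstro, a log2 fold change of -0.28 ± 0.049. In each of these 3 genes the SFN-fed libraries lay in a narrow band below those of ConAstro. Haus3 shares exon sequence with Poln on the same strand, so reads there cannot be assigned to 1 of them.

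The rest of the 10 held 2 more splicing genes, Luc7l at -0.23 ± 0.045 and Snrnp48, of the minor spliceosome, at -0.31 ± 0.061. The zinc finger genes Zfp523 and Zkscan3 were at -0.26 ± 0.050 and -0.25 ± 0.054. Ankrd10 lay at -0.27 ± 0.047, and Gas5, a noncoding RNA that hosts small nucleolar RNAs, at -0.24 ± 0.049. Col11a2, a collagen chain, measured 291 ± 21.4 CPM in ConAstro and 228 ± 16.3 CPM in SFN-fed ConAstro, a log2 fold change of -0.35 ± 0.075. Splicing factors were then counted as a whole, in a set written after these values were seen: 35 of 37 had a lower mean and 16 an unadjusted p under 0.05, with a median log2 fold change of -0.14 and 7 DESeq2 calls, beside 4.43% and 0.971% of all genes in this direction. The set holds Srek1, Luc7l and Snrnp48, which prompted it, so its count partly restates them. Among them Luc7l3 was at -0.27 ± 0.062, Tra2a at -0.29 ± 0.074 and Clk1, a kinase of SR proteins, at -0.32 ± 0.094.

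**Figure D2:**
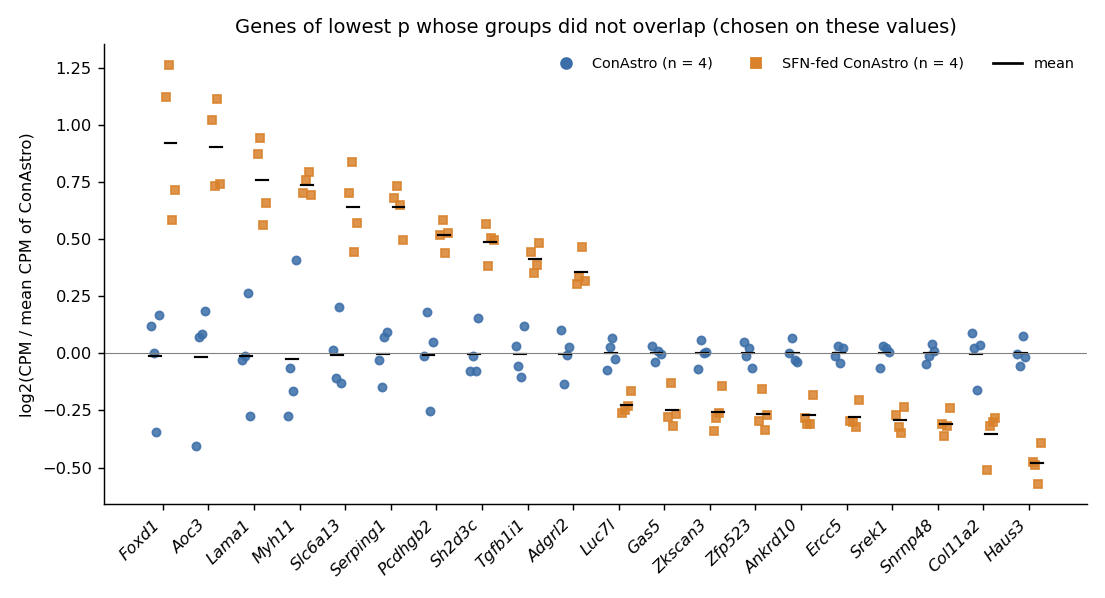
Each point is 1 library, placed at the log2 of its CPM over the ConAstro mean of that gene, for the 10 higher and 10 lower genes of lowest p with non-overlapping groups. Groups are apart in every gene because the ranking required it; the higher genes differ by 0.36 to 0.95 and the lower genes by -0.23 to -0.48 on the log2 scale.

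All 6 fibroblast markers had a higher mean, with an unadjusted edgeR p under 0.05 for each (3.97% of all genes in this direction). No edgeR adjusted p was under 0.05, DESeq2 called 4 of them (0.836% of all genes in this direction), and their median log2 fold change was 0.55. Their summed level was 126 to 136 CPM in ConAstro and 164 to 186 CPM in SFN-fed ConAstro (two-sided exact permutation p = 0.0286, adjusted p over 11 marker lists = 0.157; 0.0286 is the smallest p that 70 regroupings allow). Col1a2, a chain of collagen I, measured 67.8, 71.6, 70.02 and 68.4 CPM in ConAstro and 80.8, 89.1, 91.3 and 77.2 CPM in SFN-fed ConAstro, a log2 fold change of 0.28 ± 0.059 (edgeR adjusted p = 0.529; DESeq2 adjusted p = 0.00239). The small proteoglycan gene Dcn measured 10.3, 8.06, 8.77 and 10.2 CPM in ConAstro and 18.4, 17.2, 11.8 and 14.3 CPM in SFN-fed ConAstro, a log2 fold change of 0.73 ± 0.15 (DESeq2 adjusted p = 0.00109). In both genes every SFN-fed library was above every ConAstro library. Slc6a13 is on this list too, so it does not stand as separate support.

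Of 22 leptomeningeal genes, chosen after these values were seen, 19 had a higher mean and 10 an unadjusted p under 0.05, beside 3.97% of all genes, with a median of 0.34. The set counts Foxd1 and Lama1, which are among the 10 higher genes of lowest p. They included the transcription factors Zic1 at 0.38 ± 0.085, Foxc1 at 0.57 ± 0.15 and Tfap2a at 0.93 ± 0.20, whereas Ptgds, an abundant leptomeningeal and oligodendrocyte enzyme, was at 0.015 ± 0.18 and Igf2 at 0.045 ± 0.40. Mural markers summed to 984 to 1419.8 CPM in ConAstro and 1406 to 1849.8 CPM in SFN-fed ConAstro (exact permutation p = 0.0857, adjusted p over 11 marker lists = 0.314), and all 6 had a higher mean, led by Myh11. Endothelial markers summed to 271 to 681 CPM in ConAstro and 548 to 874 CPM in SFN-fed ConAstro (exact permutation p = 0.114, adjusted p over 11 marker lists = 0.314). Their 9 genes all had a higher mean, with a median of 0.62, and 4 had an unadjusted p under 0.05, beside 3.97% of all genes. Slco1a4, an anion transporter of brain endothelium, measured 39.4, 55.2, 56 and 94.6 CPM in ConAstro and 87.6, 82.3, 137 and 102 CPM in SFN-fed ConAstro, a log2 fold change of 0.74 ± 0.26 (edgeR adjusted p = 0.583). ConAstro replicate 4 lay within the SFN-fed range. The part of fibroblast, mural and endothelial transcripts in the differences of the genes above was not tested.

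**Figure D3:**
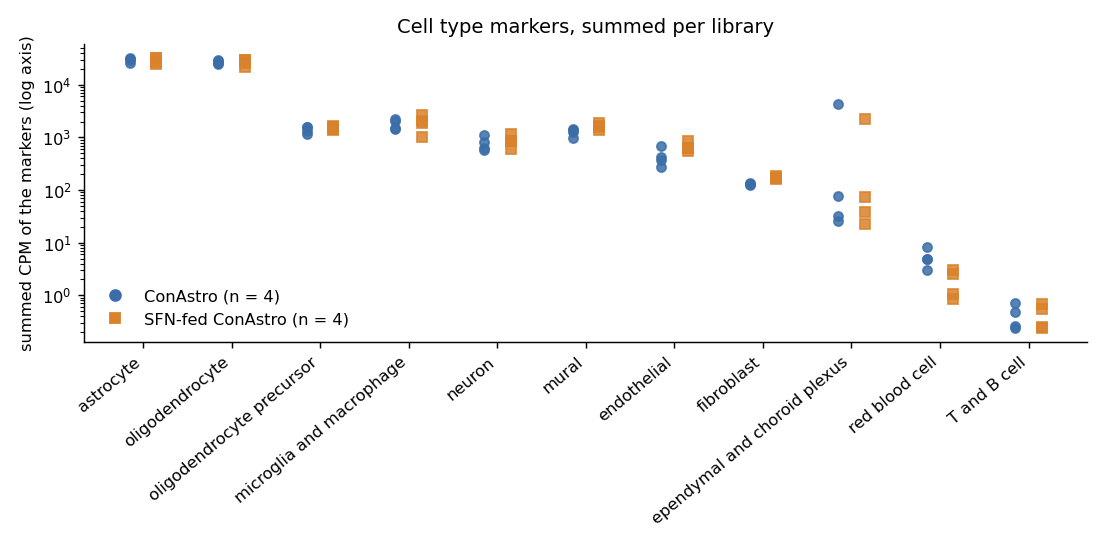
Each point is 1 library at the summed CPM of a marker list, on a log axis, with circles for ConAstro and squares for SFN-fed ConAstro. Fibroblast markers are the list whose squares all lie above its circles and Alas2, as the red blood cell list, the one whose squares all lie below; astrocyte and oligodendrocyte markers overlap, and the ependymal and choroid plexus list has 1 high library in each group.

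Summed markers of neurons, microglia, oligodendrocyte precursors and ependyma overlapped between diets. Neuron markers ran from 583 to 1111 CPM in ConAstro and 607 to 1144 CPM in SFN-fed ConAstro, microglia and macrophage markers from 1478 to 2212 CPM in ConAstro and 1025 to 2622 CPM in SFN-fed ConAstro, and precursor markers from 1186 to 1585 CPM in ConAstro and 1362 to 1655 CPM in SFN-fed ConAstro. The adjusted exact permutation p was 0.880 for precursors and 1.00 for neuron, microglia, oligodendrocyte, astrocyte, ependymal and T and B cell lists. Gad1, a GABA-synthesising enzyme, had the lowest p among neuron genes with a higher mean at 0.69 ± 0.41 and Map2 among those with a lower mean at -0.094 ± 0.093. For microglia and macrophages these were Mrc1, a marker of border macrophages, at 0.51 ± 0.28 and Tmem119 at -0.20 ± 0.30. In the oligodendrocyte lineage they were Opalin at 0.093 ± 0.11 and Mobp at -0.21 ± 0.17, and for precursors Cspg4 at 0.47 ± 0.27 and Olig1 at -0.041 ± 0.085. Choroid plexus and ependymal markers were high in ConAstro replicate 2 and in SFN-fed ConAstro replicate 2 and low in the other 6 libraries; Mia, the member of lowest p, was at -0.36 ± 0.47. The 5 T and B cell markers in the table were all under the filter, at a sum of at most 0.710 CPM.

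Alas2, which makes heme in red cell precursors, was the only red blood cell marker with counts, since the 4 globin genes had 0 counts in all 8 libraries. A count of 0 can mean no transcript or reads not assigned to the gene, which cannot be told apart here. The same holds for Ndufs5, H2-Q6 and H2-Q7 below. Alas2 measured 8.44, 3.09, 4.88 and 4.97 CPM in ConAstro and 0.848, 1.08, 3.05 and 2.56 CPM in SFN-fed ConAstro. Every SFN-fed library was below every ConAstro library, with a log2 fold change of -1.51 ± 0.46 (edgeR adjusted p = 0.558; DESeq2 adjusted p = 0.0378; exact permutation p = 0.0286, adjusted p over 11 marker lists = 0.157). It was -2.46 with the 145 libraries alone and -0.93 with the 147 libraries alone.

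Subunits of the respiratory chain had slightly lower means in SFN-fed ConAstro. Complex I (NADH dehydrogenase) passes electrons from NADH to ubiquinone, and 33 of its 36 tested subunit genes had a lower mean, 12 of them with an unadjusted p under 0.05, with a median log2 fold change of -0.10. No adjusted p was under 0.05, and DESeq2 called 1, Ndufb3. In this direction, 4.43% of all genes had an unadjusted p under 0.05 and DESeq2 called 0.971%. Ndufb3, an accessory subunit, measured 42.7, 39.8, 41.6 and 41.99 CPM in ConAstro and 35.3, 38.4, 38.1 and 36.6 CPM in SFN-fed ConAstro, a log2 fold change of -0.16 ± 0.048 (edgeR adjusted p = 0.547; DESeq2 adjusted p = 0.0263). Its SFN-fed libraries were all below its ConAstro libraries. Ndufa10, the subunit of lowest p among the 3 with a higher mean, was at 0.045 ± 0.049. Ndufa13, a subunit in the membrane arm, had the largest difference of the 36, at -0.29 ± 0.090. Ndufs5 had 0 counts in all 8 libraries and was not tested.

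The other complexes were alike in size of difference. Of 39 genes of complexes II to V and cytochrome c, 37 had a lower mean, with a median of -0.10. An unadjusted p under 0.05 was reached by 9 of them, beside 4.43% of all genes in this direction. Cox7c, a subunit of cytochrome c oxidase, measured 42.3, 41.4, 46.4 and 42.2 CPM in ConAstro and 35.3, 38.6, 39.3 and 32.5 CPM in SFN-fed ConAstro, a log2 fold change of -0.24 ± 0.071 (edgeR adjusted p = 0.547), and Atp5g2, of ATP synthase, was at 0.085 ± 0.084. Per library, the median deviation of the complex I genes was 0.026, 0.038, 0.090 and 0.045 in ConAstro and -0.12, 0.019, 0.014 and -0.10 in SFN-fed ConAstro, on the log2 scale. All 4 SFN-fed values were below the ConAstro values, replicates 2 and 5 by more than replicates 3 and 4, and each library number held 1 of either. For the genes of complexes II to V and cytochrome c, the medians of the groups overlapped. They were 0.051, 0.047, 0.059 and 0.050 in ConAstro and -0.14, 0.027, 0.054 and -0.13 in SFN-fed ConAstro. Cytosolic ribosomal proteins, with 45 of 46 tested, had a median of -0.036, with Rps27a at -0.19 ± 0.073 and Rpl10 at 0.064 ± 0.068.

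Genes that glucocorticoids induce had lower means in SFN-fed ConAstro. Of 12, 11 had a lower mean, 4 with an unadjusted p under 0.05 (4.43% of all genes in this direction) and none after adjustment; DESeq2 called 3 (0.971% of all genes), and the median was -0.35. Errfi1, a feedback inhibitor of EGF receptor signalling, measured 87.97, 91.6, 87.98 and 68.1 CPM in ConAstro and 53.7, 44.2, 64.9 and 62.9 CPM in SFN-fed ConAstro. All SFN-fed libraries were lower, with a log2 fold change of -0.57 ± 0.14 (edgeR adjusted p = 0.533; DESeq2 adjusted p = 0.00537). Tsc22d3, the leucine zipper gene that mediates glucocorticoid action, measured 487, 449, 550.1 and 388 CPM in ConAstro and 296, 247, 408 and 311 CPM in SFN-fed ConAstro, and its groups overlap through SFN-fed replicate 4 and ConAstro replicate 4. Its log2 fold change was -0.57 ± 0.16 (edgeR adjusted p = 0.533; DESeq2 adjusted p = 0.0291), and that of Ddit4, an inhibitor of mTORC1, was -0.39 ± 0.11 (DESeq2 adjusted p = 0.0366). Pdk4, a kinase that restrains pyruvate oxidation, was at -0.30 ± 0.089 (edgeR adjusted p = 0.547). Mt1, a metallothionein, had the one higher mean of the 12, at 0.025 ± 0.13. Without ConAstro replicate 3 the median of the 12 was -0.15, without replicate 3 of each group it was -0.11, and with the 145 or the 147 libraries alone it was -0.51 or -0.23.

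Heat shock genes, whose products include chaperones that refold proteins, had lower means in all 13 cases, with a median of -0.25. Of them, 5 had an unadjusted p under 0.05 (4.43% of all genes in this direction), none an adjusted p under 0.05, and DESeq2 called none. The heat shock element, the site of the factor HSF1, is shown in the promoters of 2 of these 5, 5′ to 3′ from RefSeq (GRCm38.p6) with the element in capitals; in Hspd1 it is a run of overlapping copies in a window that GENCODE M21 places in an annotated exon.
Hspd1, chr1:55088053-55088082, minus strand: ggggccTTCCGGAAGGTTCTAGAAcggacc
Hspa1b, chr17:34959309-34959368, minus strand: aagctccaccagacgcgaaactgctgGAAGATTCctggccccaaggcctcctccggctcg
The letters searched were GAANNTTC and TTCNNGAA, each of which is its own reverse complement. They were in 7 of the 9 heat shock genes with a promoter in the table, counted by gene. Counted by promoter, they were in 15.1% of all promoters. The 7 genes include Hspd1 and Hspe1, whose promoter windows overlap on opposite strands and hold the same run of copies. Hspa1a and Hspa1b, also among the 7, both hold GAAGATTC.

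Hspa1b, the inducible HSP70, measured 22.3, 67.9, 60.2 and 34.2 CPM in ConAstro and 17.7, 13.5, 32.3 and 21.6 CPM in SFN-fed ConAstro. ConAstro replicates 2 and 3 were the highest, ConAstro replicate 1 lay within the SFN-fed range, and the log2 fold change was -1.12 ± 0.38 (edgeR adjusted p = 0.583). Hspa1b and Hspa1a are near-identical, so reads that fit both cannot be assigned to 1 of them. Hspd1, the mitochondrial chaperonin, measured 103, 116, 124 and 109 CPM in ConAstro and 102, 98.6, 104 and 99.4 CPM in SFN-fed ConAstro, a log2 fold change of -0.16 ± 0.061 (edgeR adjusted p = 0.583). Immediate early genes, which tissue dissociation is known to induce, had higher means in 11 of 16 cases, with a median of 0.23 (0.10 without SFN-fed ConAstro replicate 5). Dusp1, a phosphatase of this class that glucocorticoids also induce, was at 0.48 ± 0.17 (edgeR adjusted p = 0.583) and Nr4a3 at -0.58 ± 0.29. The part of the dissociation in these differences was not tested. In the unfolded protein response, Chac1 was at 0.63 ± 0.26 and Ddit3 at -0.22 ± 0.094, and the median of its 12 genes was -0.12.

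**Figure D4:**
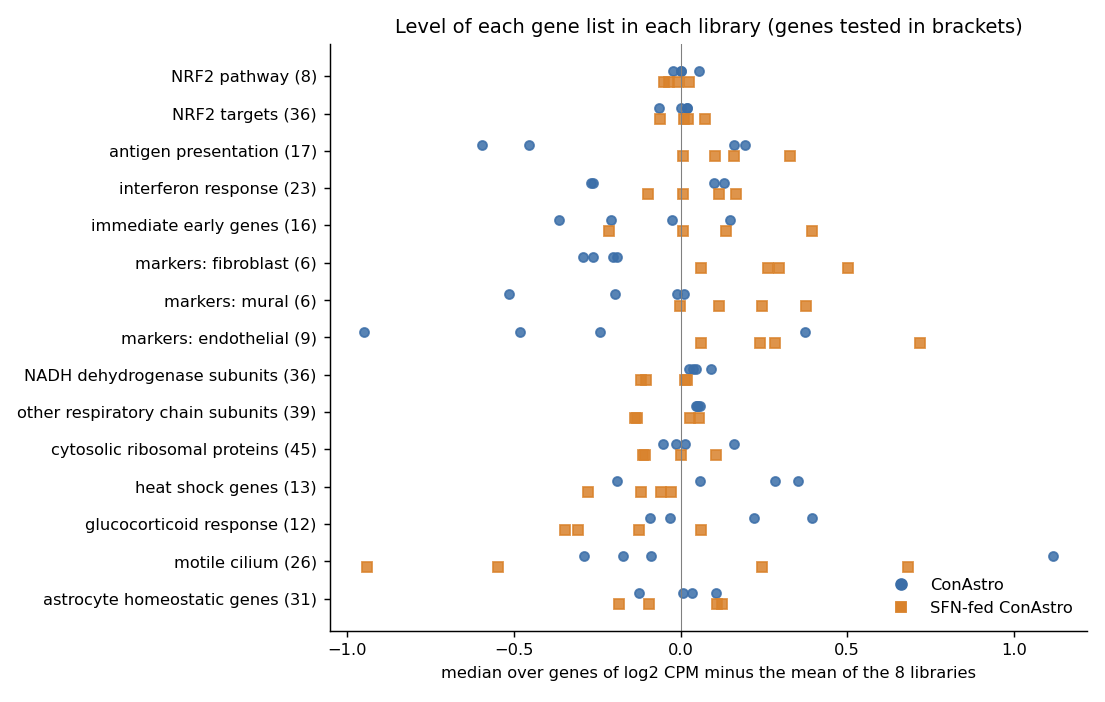
Each point is 1 library at the median, over the genes of a list, of the log2 CPM minus the mean of the 8 libraries (circles ConAstro, squares SFN-fed ConAstro, genes tested in brackets). Fibroblast markers and complex I are the lists among those drawn whose groups are apart; NRF2 targets lie between -0.064 and 0.073 in all 8 libraries, and the motile cilium list has the widest range.

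Antigen presentation genes had higher means in 16 of 17 cases, with a median of 0.25, 4 with an unadjusted p under 0.05 (3.97% of all genes in this direction), none after adjustment and none called by DESeq2. Without ConAstro replicate 1 the median was 0.054, and without ConAstro replicate 2 it was 0.16. Ciita, the master activator of MHC class II, measured 1.66, 1.34, 1.87 and 2.89 CPM in ConAstro and 3.12, 3.29, 2.68 and 3.46 CPM in SFN-fed ConAstro, a log2 fold change of 0.69 ± 0.23 (edgeR adjusted p = 0.583). Cd74, the class II invariant chain, measured 20.7, 39.2, 78.1 and 75.9 CPM in ConAstro and 152, 110.2, 76.3 and 90.5 CPM in SFN-fed ConAstro. ConAstro replicates 1 and 2 were low and replicate 3 was above the lowest SFN-fed library, with a log2 fold change of 1.00 ± 0.40 (edgeR adjusted p = 0.585). The class I gene H2-K1 was at -0.00018 ± 0.13. Tap1, which loads peptides onto class I, was at 0.36 ± 0.12 (edgeR adjusted p = 0.583). The 5 class II genes had a median of 0.96. H2-Q6 and H2-Q7 had 0 counts in all 8 libraries, and H2-T22 was under the filter. Interferon response genes had a median of 0.16 over 23 (0.055 without ConAstro replicate 2, 0.066 without replicate 1 and 0.075 without SFN-fed ConAstro replicate 2), with Ddx58, an RNA sensor, at 0.23 ± 0.082 and Ifi27 at -0.29 ± 0.13. Mrc1, a marker of border macrophages, cells that can express class II genes, measured 73.3, 74.4, 168 and 103 CPM in ConAstro and 166, 152, 101 and 179 CPM in SFN-fed ConAstro, and the part of such cells in the class II values was not tested.

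Genes of astrocyte function gave no difference beyond the spread. Of 31 homeostatic genes, 16 had a higher and 15 a lower mean, none had an unadjusted p under 0.05, and the median was 0.0043. Sox9, a glial transcription factor, was at 0.23 ± 0.14 and Gjb6, connexin 30, at -0.18 ± 0.093. Among ion transport families, all 6 Na,K-ATPase subunits had higher means, with a median of 0.064 and no unadjusted p under 0.05; Atp1b1, of lowest p, measured 259.7, 301, 228 and 253 CPM in ConAstro and 288, 257, 296 and 271 CPM in SFN-fed ConAstro, a log2 fold change of 0.10 ± 0.089 (edgeR adjusted p = 0.798). The 8 two-pore K+ channels had a median of -0.0023, with Kcnk1 at -0.12 ± 0.069 and Kcnk5 at 0.12 ± 0.11. Cholesterol synthesis genes had a median of -0.023, with Cyp51 at -0.17 ± 0.12 and Srebf2 at 0.081 ± 0.077.

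Reactive astrocyte genes were mixed. Of 27 tested, 5 were higher and 2 lower at an unadjusted p under 0.05 (3.97% and 4.43% of all genes), with a median of 0.041. Cp, the ferroxidase ceruloplasmin, measured 43.6, 43.1, 50.8 and 46.8 CPM in ConAstro and 66.4, 63.6, 53.8 and 53.6 CPM in SFN-fed ConAstro, with all SFN-fed libraries higher and a log2 fold change of 0.36 ± 0.088 (edgeR adjusted p = 0.533; DESeq2 adjusted p = 0.0113). Sphk1 of this list was at 8.65 CPM in ConAstro replicate 3 and under 1 CPM in the other 7 libraries, so its log2 fold change of -2.69 ± 1.07 rests on that library. Fkbp5, a glucocorticoid-induced chaperone on this list, had the same high library, at 109 CPM against 8.84 to 26.1 CPM in the other 7. Without ConAstro replicate 3 the median of the list was 0.30. Lcn2 and Ugt1a1 were under the filter. In the circadian list Usp2, a deubiquitinase under clock control, measured 161, 154, 149.8 and 117 CPM in ConAstro and 109.9, 90.3, 116 and 108 CPM in SFN-fed ConAstro, a log2 fold change of -0.46 ± 0.11 (edgeR adjusted p = 0.533; DESeq2 adjusted p = 0.012), whereas Npas2 was at 0.12 ± 0.085 and the median of the 20 was -0.014.

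Lysine catabolism is the pathway in which ALDH7A1 acts. Gcdh, glutaryl-CoA dehydrogenase, a later step, measured 36.9, 39.9, 38.7 and 39.7 CPM in ConAstro and 33.3, 36.3, 34.1 and 34.95 CPM in SFN-fed ConAstro, with all SFN-fed libraries lower and a log2 fold change of -0.16 ± 0.050 (edgeR adjusted p = 0.558; DESeq2 adjusted p = 0.027). Crym, a ketimine reductase of the pipecolate branch, was at 0.78 ± 0.36 (edgeR adjusted p = 0.608), and 8 of the 10 genes of this list had a lower mean. Of 4 further genes that the study names for its comparison of genotypes, not for the diet, Echdc3 had groups that did not overlap (2.16% of all genes in this direction) and 3 did overlap. Acer2, an alkaline ceramidase, was at 0.29 ± 0.21, Vsig2 at 0.023 ± 0.23, and A630020A06 at 0.53 ± 0.51. Echdc3 measured 3.06, 2.39, 2.57 and 3.04 CPM in ConAstro and 3.21, 3.39, 3.12 and 3.43 CPM in SFN-fed ConAstro, a log2 fold change of 0.25 ± 0.13 (edgeR adjusted p = 0.636).

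Motile cilium genes varied more between libraries of a group than between diets. All 26 tested genes had a lower mean in SFN-fed ConAstro, with a median of -0.25, and none had an unadjusted p under 0.05. The direction rests on ConAstro replicate 3: without it the median was 0.20, and without replicate 3 of each group 0.11. Per library the median deviation was -0.29, -0.088, 1.12 and -0.17 in ConAstro and 0.68, 0.25, -0.94 and -0.55 in SFN-fed ConAstro. ConAstro replicate 3 was the highest and the 147 libraries the lowest, and with the 145 libraries alone the median was 0.20 against -0.99 with the 147 libraries alone. Ccdc39, needed to assemble the axoneme, measured 18.1, 19.2, 38.02 and 18.1 CPM in ConAstro and 25.4, 19.6, 12.9 and 15.3 CPM in SFN-fed ConAstro, a log2 fold change of -0.35 ± 0.30.

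The same diet comparison can be set beside that in cKOAstro, where 6 SFN-fed and 7 control libraries were fitted with these 8 in 1 model of genotype, diet and their interaction. The library labelled SFN-fed cKOAstro replicate 2 was left out of this fit because its Aldh7a1 (222 CPM), Slc1a3 (4436 CPM) and Esr1 (0.533 CPM) go against its label. Its name starts with 143, as do those of the control-diet ConAstro libraries. Whether its label and that of SFN-fed ConAstro replicate 1 were exchanged cannot be told from the labels, and it was not used as a ConAstro library. Library numbers also differ between diets in cKOAstro: the 6 SFN-fed libraries are named 143 (replicates 1 and 7), 147 (replicate 3) or Astro, and the 7 control libraries 141, 146 or Astro. The number 143 is thus the whole control arm in ConAstro and part of the SFN arm in cKOAstro, so opposite signs of the diet comparison in the 2 genotypes and a difference between library numbers cannot be told apart. The interaction passed after adjustment for 0 of 17264 genes in edgeR (lowest adjusted p = 0.341; 1436 genes, or 8.32%, at an unadjusted p under 0.05), and DESeq2 called 25. Foxd1 had a log2 fold change of 0.95 ± 0.18 for the diet in ConAstro and -0.49 ± 0.17 in cKOAstro. The difference was 1.44 ± 0.27 (edgeR adjusted p = 0.341; DESeq2 adjusted p = 0.00186). Serping1 was at -0.37 ± 0.14 in cKOAstro, a difference of 1.01 ± 0.22 (edgeR adjusted p = 0.359; DESeq2 adjusted p = 0.0182). Hspa1b was at 1.05 ± 0.31 there, a difference of -2.16 ± 0.51 (edgeR adjusted p = 0.422; DESeq2 adjusted p = 0.0214). Foxd1, Serping1 and Hspa1b were chosen for their difference in ConAstro, which enters the interaction, so these values are a description.

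By list, the median for the diet in cKOAstro was -0.30 for fibroblast markers, -0.38 for mural markers, 0.10 for complex I, 0.16 for heat shock genes and 0.33 for the glucocorticoid list, each of the opposite sign to ConAstro. Antigen presentation genes had 0.24 and motile cilium genes -0.46, of the same sign as in ConAstro for antigen presentation, and for cilium genes only with ConAstro replicate 3 included. NRF2 targets had a median of 0.035 in cKOAstro, with 29 of 36 higher in mean and 6 of 36 at an unadjusted p under 0.05, where 9.69% of all genes were, and 1 of 36 at an unadjusted p under 0.05 for the interaction, where 8.32% of all genes were. The difference between the genotypes was not tested for any list, and the library numbers stated above differ between its arms.

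**Figure D5:**
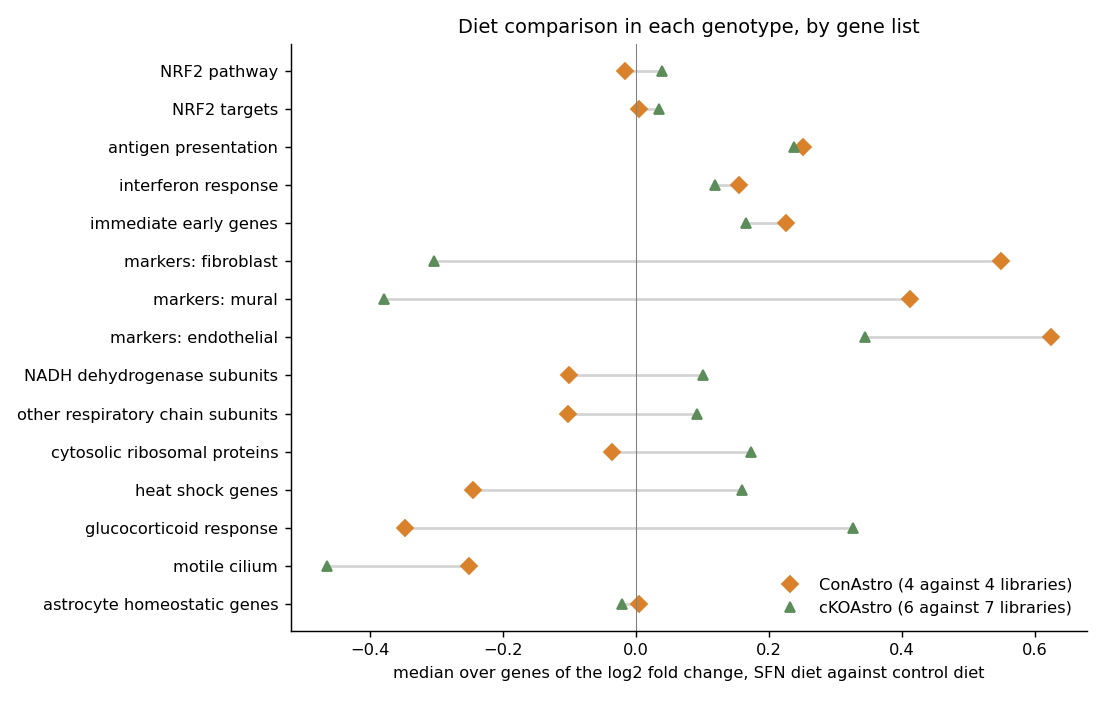
Each row is a gene list, with the median over its genes of the log2 fold change of SFN diet against control diet in ConAstro (diamonds) and in cKOAstro (triangles). Diamonds and triangles lie close for NRF2 targets and antigen presentation and on opposite sides of 0 for fibroblast, mural, respiratory chain, heat shock and glucocorticoid lists; libraries named 143 are the control arm in ConAstro and part of the SFN arm in cKOAstro.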

How the data were processed

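RNA of ACSA-2-sorted cortical astrocytes was sequenced from poly(A) libraries, 1 per mouse. Per the labels and the study's methods, the authors checked reads with FastQC, aligned them with STAR to mm10 and deposited raw read counts per gene symbol; tool versions, annotation and the strand setting of the counts are not given in the sources used here. The labels give mouse, diet and genotype for each library, so p-values measure the spread between mice. Diet was assigned to whole cages, and the labels do not give the cage of a mouse. The p-values treat each mouse as an independent unit of the diet, and the spread between cages was not tested. Counts of ConAstro replicates 1 to 4 and SFN-fed ConAstro replicates 2 to 5 (74771451 to 219904257 per library) were fitted with edgeR 4.0.16 in R 4.3.3 (TMM, filterByExpr with a minimum count of 10 and a minimum total of 15, quasi-likelihood test, Benjamini-Hochberg threshold 0.05). Each effect is the log2 fold change of SFN diet over control diet with its SE. CPM are TMM-scaled, and log2 CPM used a prior count of 2. DESeq2 1.42.0, limma-voom with library quality weights (limma 3.58.1), RLE scaling, no filter, thinned counts, other library sets and a replicate block were alternatives. The main edgeR fit was tested on simulated counts. An interaction of genotype and diet was fitted in 21 libraries, leaving out the 2 whose Aldh7a1 goes against their label. Summed markers and totals had two-sided exact permutation tests.

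The libraries, members and lists were chosen with earlier results of these data known. The text names the genes that the study names, the NRF2 regulators and main targets, the 10 genes in each direction with the lowest unadjusted p among those with non-overlapping groups and a mean of at least 1 CPM (used because no gene was called), and, per list, the member of lowest p in each direction. Predicted, pseudogene and small RNA genes are not named. Further members that are given (for example Tsc22d3, Ddit4, Pdk4, Cd74, Tap1, Col1a2, Dcn, Ndufa13, Gstm2, Abcc4, Prdx1, Hspd1, Fkbp5 and those of the leptomeningeal, splicing and protocadherin sets) were chosen after their values were seen. Of 496 list genes, 494 were in the table of 24411 genes, and positions are from GENCODE M21 by symbol. Of 86 genes named by rule, 32 have an exon that overlaps another gene's exon, 7 of them among the 20 of lowest p (Adgrl2, Ankrd10, Gas5, Haus3, Pcdhgb2, Sh2d3c and Zfp523). Reads in such overlaps may not be assignable to 1 gene. No 2 libraries agreed within sampling noise. Some items are not reported here.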

Additional observations from a re-analysis of the deposited data

Results flagged for a closer look

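In each group of 4 libraries, the highest or lowest library was compared with the rest by Dixon's test at its 95% critical value. Of 194 groups examined, 9 had such a library, and chance gives about 1 in 20.

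In ConAstro replicate 3, Ahr was high at 4.32 CPM, Slc7a11 was low at 307 CPM and Srebf2 was low at 403 CPM. In the same library Ccdc39 was high at 38.02 CPM and Sphk1 at 8.65 CPM. Errfi1 was low in ConAstro replicate 4 at 68.1 CPM. Kcnk1 was low in ConAstro replicate 2 at 343 CPM. Ependymal and choroid plexus markers were high in ConAstro replicate 2, at 4248 CPM, and in SFN-fed ConAstro replicate 2, at 2260.4 CPM.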

How the results depend on the processing

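edgeR called 0 genes under RLE scaling, no filter, thinned counts, all 4 groups in 1 fit, 3 libraries against 3, the 145 or 147 libraries alone and with SFN-fed ConAstro replicate 1, and limma-voom called 0; leaving out 1 library gave 0 to 1. DESeq2 called 322, and 92, 24, 101 and 3 with the library sets given above. The number of genes at unadjusted p under 0.05 was 1379, 2321 with DESeq2, 864 with the 147 libraries alone, 635 with all 4 groups in 1 fit and 889 to 1471 leaving out 1 library. The interaction was called for 25 genes by DESeq2.

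The shared replicate numbers 2, 3 and 4 do not pair the mice (correlations of deviations 0.15, 0.093 and 0.12; not every library correlated best with its own number). With the replicate block, edgeR called 0 genes and the number of genes at unadjusted p under 0.05 was 783, the thioredoxin median was 0.033, and G6pdx was -0.012, Gsta4 was 0.044, Hmox1 was -0.10, Nfe2l2 was 0.0090 and Vsig2 was -0.075; no call changed.

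Median log2 fold changes that moved by more than the spread were glutathione genes (0.12 with the 145 libraries alone, 0.0073 with the 147 libraries alone), AHR targets (-0.31 with the 145 libraries alone; -0.081 to 0.31 leaving out 1 library), reactive genes (-0.079 to 0.30 leaving out 1 library), motile cilium (-0.99, 147 alone), glucocorticoid genes (-0.11 without replicate 3 of each group), Alas2 (-2.46, 145 alone) and ependymal markers (-2.37, 147 alone). The median of motile cilium was -0.60 to 0.20 leaving out 1 library, the median of antigen presentation 0.054 to 0.38 and the median of ependymal markers -1.70 to 0.43. The causes were not tested.

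Some named genes changed sign, none of them called. Not all of these were near 0 in the main fit: A630020A06, Osgin1, Mia, Acer2, Mobp, Tmem119 and Cyp51 had larger differences there, given above. The log2 fold change was, without replicate 3 of each group (chosen after seeing the data), G6pdx -0.040, Gsta4 0.015, H2-K1 0.069, Mia 0.077, Mt1 -0.037, Nqo1 0.038, Srxn1 -0.036 and Vsig2 -0.0042. It was, with DESeq2, H2-K1 0.00011. It was, with the 145 libraries alone, Acer2 -0.069, G6pdx -0.016, Gsta4 0.089, H2-K1 0.056, Hmox1 -0.028, Keap1 0.013, Mia 0.15, Nqo1 0.059, Opalin -0.044, Tmem119 0.17, Txnrd1 0.021 and Vsig2 -0.31. It was, with the 147 libraries alone, A630020A06 -0.34, Cyp51 0.024, Gclc -0.061, Mobp 0.049, Mt1 -0.031, Nfe2l2 0.029, Osgin1 -0.13, Rpl10 -0.062 and Srxn1 -0.055. It was, with limma-voom, G6pdx -0.029, H2-K1 0.052, Nqo1 0.032, Srxn1 -0.0017 and Vsig2 -0.069. It was, without the filter, H2-K1 0.00056. It was, with thinned counts, Gsta4 0.0070 and Hmox1 -0.0063. It was, with SFN-fed ConAstro replicate 1, G6pdx -0.010, H2-K1 0.082, Keap1 0.016, Nfe2l2 0.0016, Olig1 0.024, Tmem119 0.078 and Vsig2 -0.0036.

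Leaving out 1 library, the range was -0.00082 to 0.81 for A630020A06, -0.043 to 0.045 for G6pdx, -0.050 to 0.082 for Gsta4, -0.086 to 0.087 for H2-K1, -0.079 to 0.18 for Hmox1, -0.71 to 0.15 for Mia, -0.081 to 0.10 for Mt1, -0.030 to 0.018 for Nfe2l2, -0.12 to 0.067 for Nqo1, -0.093 to 0.0079 for Olig1, -0.0015 to 0.16 for Opalin, -0.034 to 0.048 for Srxn1, -0.47 to 0.033 for Tmem119 and -0.13 to 0.19 for Vsig2.

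Every other gene named by rule kept its direction under these alternatives, and DESeq2 called 26 of them with values of the same sign. Depth limits genes of few CPM, such as Osgin1.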
